A study of Mus musculus with 16 samples.

Results

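Gata4, Emx2, Pax3, Vax2, Irx1 and Nkx2-3 are transcription factors of embryonic patterning that were transcribed in a line of pancreatic stellate cells (PSCs). The 6 genes were chosen by name, among the 21684 protein-coding genes of 56941 in the deposited tables, because their levels in PSCs stood well above those in sympathetic ganglia. These levels therefore describe the choice and were not tested, while the comparison of PSCs with and without ganglia was tested.

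Bulk RNA sequencing covered 16 libraries. The PSCs were mPSC1 cells, a single immortalized line of murine pancreatic stellate cells, cultured alone (PSC, n = 3) or with explants of the superior cervical ganglion (PSC+SCG, n = 3). The explants, taken from wild-type C57BL/6J pups 1 to 4 days old, were cultured alone (SCG, n = 3), with NIH 3T3 mouse fibroblasts (SCG+MEF, n = 3) or with mPSC1 cells (SCG+PSC, n = 4). In a coculture 10000 cells on an insert shared medium, and not contact, with 8 to 13 pooled explants for about 70 hours.

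Developmental transcription factors bind DNA and give cells of a region or lineage their identity in the embryo. Gata4 is a zinc-finger factor of the heart, gut mesenchyme, gonad and liver stellate cells. Emx2 and Vax2 are homeobox factors, best known from the dorsal forebrain and urogenital tract and from the ventral eye. Pax3, a paired-box factor, marks neural crest and muscle progenitors, Irx1 belongs to the Iroquois homeobox genes that subdivide many embryonic tissues, and Nkx2-3 patterns the mesenchyme of the gut and spleen.

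On GRCm39, the authors' build, Gata4 lies on chromosome 14 (63436362 to 63509141, minus strand), Pax3 on chromosome 1 (78077904 to 78173771, minus strand) and Irx1 on chromosome 13 (72106040 to 72111848, minus strand). Vax2 lies on chromosome 6 (83688215 to 83715295, plus strand). Emx2 (59446804 to 59453789) and Nkx2-3 (43600764 to 43604331) are both on the plus strand of chromosome 19. Emx2 and Vax2 each have an annotated antisense gene, Emx2os and Vax2os, on the opposite strand.

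The 250 bases before the annotated start are shown for 2 members, from the GRCm39 genome and GENCODE M39 starts, 5′ to 3′ on the strand of the gene. Emx2 (chr19:59446554-59446803) is shown because its antisense partner was transcribed too, and the capitals mark the 90 bases between the canonical starts of Emx2os and Emx2. In Vax2 (chr6:83687965-83688214) the capitals mark both copies of the GC box GGGCGG.
Emx2: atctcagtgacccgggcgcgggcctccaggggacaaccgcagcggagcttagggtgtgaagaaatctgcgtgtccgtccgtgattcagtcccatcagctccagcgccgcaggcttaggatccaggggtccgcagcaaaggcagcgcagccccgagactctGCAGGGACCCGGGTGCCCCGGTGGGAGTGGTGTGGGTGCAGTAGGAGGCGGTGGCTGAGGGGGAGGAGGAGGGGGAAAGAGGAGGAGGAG
Vax2: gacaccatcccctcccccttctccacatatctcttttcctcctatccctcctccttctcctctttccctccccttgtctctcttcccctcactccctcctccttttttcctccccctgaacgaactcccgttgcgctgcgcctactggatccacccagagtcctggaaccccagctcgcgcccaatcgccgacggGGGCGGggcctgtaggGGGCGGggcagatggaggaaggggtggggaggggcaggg

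Of these windows Emx2 held 66.8% G and C and Vax2 64.0%, beside a median of 53.2% over 21618 protein-coding genes. The window of Irx1 was the richest of the 6, at 73.2%, and 96.3% of the genes had less. GGGCGG, on either strand, was found in 3 of the 6 windows, those of Vax2, Irx1 and Nkx2-3, and in 36.4% of all. The homeodomain core TAATTA (5.2% of all), the NK2 motif TNAAGTG (10.1%), the paired motif GTCACGC (2.0%) and the TATA box TATAAA (11.9%) were in none of the 6. These are matches of letters in short windows and say nothing of binding.

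In PSCs cultured alone all 6 members were transcribed, at levels that differed widely among themselves. Nkx2-3 stood highest, at 20.1 ± 2.02 (SD, n = 3) per 1000000 of the library's normalized counts (CPM) and per kilobase of exon, followed by Vax2 at 15.0 ± 1.25 and Irx1 at 10.3 ± 2.09. Pax3 reached 9.54 ± 0.927, Emx2 6.17 ± 0.715 and Gata4 2.49 ± 0.542. The libraries of neighbours in this order did not overlap, except those of Irx1 (7.89 to 11.8) and Pax3 (8.63 to 10.5). The order of Pax3 depended on the length used: over the longest coding transcript it reached 15.3, beside 15.0 for Vax2.

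Among 21621 protein-coding genes with a length, 90.9% had a lower level in PSCs than Nkx2-3 and 87.8% a lower level than Vax2. Gata4, the lowest member, still lay above 60.9% of the genes, but under the median of the genes detected, 2.91. All 6 were thus well measured: the members together had 5984 to 7665 reads in each of the 3 PSC libraries. In bulk RNA, fewer cells of a type and less RNA per cell cannot be told apart.

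The libraries held 31900689 to 41632381 reads on genes, as recovered and accepted for 14 of the 16, so 3 reads correspond to 0.0721 to 0.094 CPM. The label of the line was checked against marker genes. Of 12 fibroblast and stellate markers, 11 had a mean of at least 10 normalized counts in PSCs, led by Col1a1 and Col1a2, the chains of type I collagen. The same number, 11, did so in SCG explants, led by Vim (824 CPM per kilobase), so the count does not separate the line from the ganglia. The 12 markers summed to 15760 to 21310 CPM in PSCs and to 10120 to 17070 in SCG, ranges that overlap. Col1a1 was higher in PSCs (1284 CPM per kilobase) than in SCG (396). Fap, a protease of activated fibroblasts, was lower in PSCs (26.7 normalized counts) than in SCG (1967). Lrat, which stores retinoid in quiescent stellate cells, was at 0 in each PSC library. Th and Dbh, the noradrenaline enzymes of sympathetic neurons, averaged 1.28 and 1.30 normalized counts in PSCs, against 19200 and 34850 in SCG explants.

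The comparison of PSC+SCG with PSC asks whether ganglia across the insert changed transcription in the stellate line. None of the 6 members passed the threshold (limma, an adjusted p no higher than 0.05 with a log2 fold change no smaller in size than 0.5), and in every member the libraries of both groups overlapped. Among all 21273 genes tested 0 passed (0%), 408 had an unadjusted p under 0.05 (1.92%) and in 5.6% the groups did not overlap. With the replicate number as a block, which compares same-numbered libraries with each other, 98 genes passed (0.461%), 67 higher and 31 lower, again with no member among them. The study's own model held the experimental batch, which no source ties to a library, so that model could not be fitted here and the count of 0 is not its count. Adjusted p ranged from 0.964 to 0.997 over the members with the block and was 0.9999 for each without it. edgeR's quasi-likelihood test on recovered reads of 5 libraries also called 0 genes.

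Gata4 is known to restrain the activation of stellate cells in the liver. In normalized counts, which are reads divided by the library's size factor, it measured 432.1, 642.5 and 464.3 in PSC replicates 1 to 3 and 405.4, 615.7 and 471.2 in PSC+SCG. Replicate 2 was the highest in both groups, and within each numbered pair the change was small, from -0.09 to 0.02 on the log2 scale. The log2 fold change was -0.04 (SE 0.22, 95% interval -0.54 to 0.45), so without the block a fall past the threshold in size was not excluded. The block narrowed the interval to -0.32 to 0.23.

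Nkx2-3, the highest member, had 1629, 1371 and 1603 normalized counts in PSC and 1568, 1599 and 1746 in PSC+SCG. Replicate 2 of PSC was the lowest library and replicate 3 of PSC+SCG the highest, with the others between. Its log2 fold change was 0.10 (SE 0.13, 95% interval -0.19 to 0.38, and -0.13 to 0.32 with the block).

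Pax3 gave the largest counts, 1880, 2349 and 2180 in PSC and 1969, 2197 and 2174 in PSC+SCG. Both extremes, replicates 1 and 2, were PSC libraries, so the PSC+SCG values lay inside the PSC range. Accordingly the log2 fold change was near 0, at -0.01 (SE 0.13, 95% interval -0.30 to 0.28, and -0.22 to 0.20 with the block).

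The homeobox factor of the forebrain and urogenital tract, Emx2, had 736.5, 647.1 and 621.3 normalized counts in PSC and 718.8, 742.0 and 708.5 in PSC+SCG. The PSC+SCG values lay at the upper end of those of PSC, and replicate 1 of PSC was inside their range. A log2 fold change of 0.12 (SE 0.13, 95% interval -0.19 to 0.42, and -0.14 to 0.37 with the block) was the largest among the members. Emx2 also varied least: the highest of the 6 libraries was 1.19 times the lowest.

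Vax2 had 710.3, 731.1 and 860.2 normalized counts in PSC and 604.1, 827.9 and 851.0 in PSC+SCG. Its replicate 1 was the lowest in each group and its replicate 3 the highest. The mean hardly differed, with a log2 fold change of -0.02 (SE 0.17, 95% interval -0.42 to 0.37, and -0.28 to 0.23 with the block).

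Irx1 was the most variable member, its highest library at 1.86 times its lowest. It measured 1094, 1052 and 766.8 in PSC and 882.9, 1425 and 818.0 in PSC+SCG. The numbered pairs went different ways, by -0.31, 0.44 and 0.09 on the log2 scale. The log2 fold change was 0.07 (SE 0.23), and without the block its 95% interval, -0.46 to 0.61, did not exclude a change past the threshold in size. With the block the interval ran from -0.20 to 0.34.

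**Figure D1:**
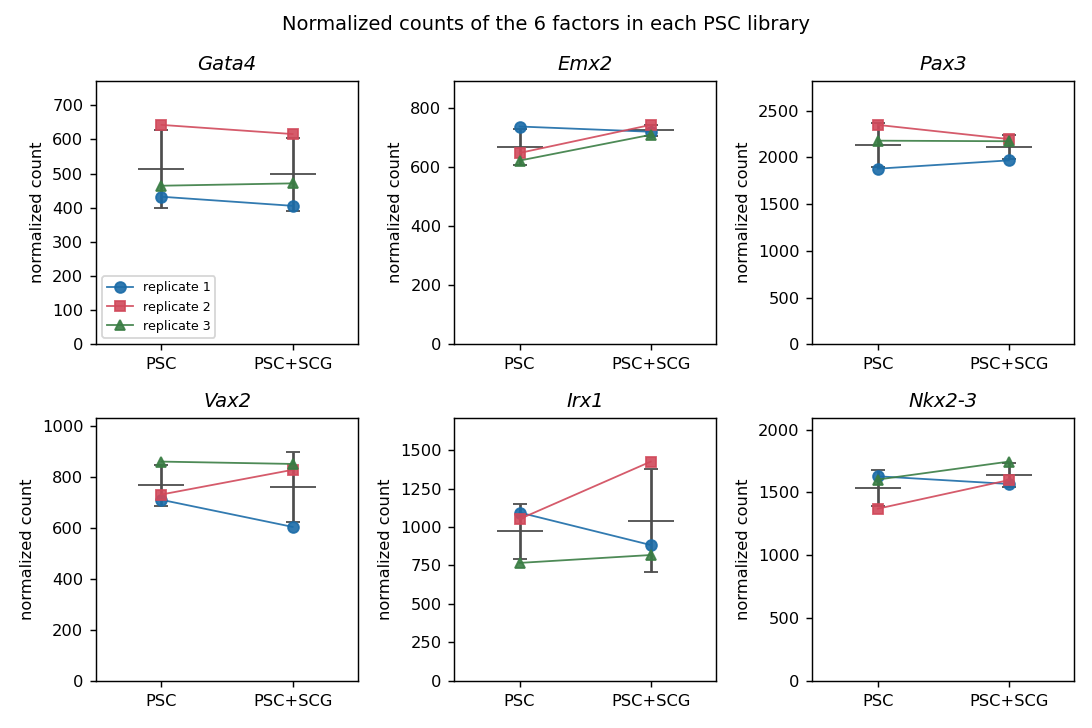
Normalized counts (vertical axes, from 0) of the 6 factors in each library of PSC and PSC+SCG, with lines joining libraries of the same replicate number and horizontal marks and bars for the mean and SD (n = 3). The 2 groups overlap in each panel; Gata4 keeps replicate 2 on top in both groups, at 642.5 and 615.7.

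**Figure D2:**
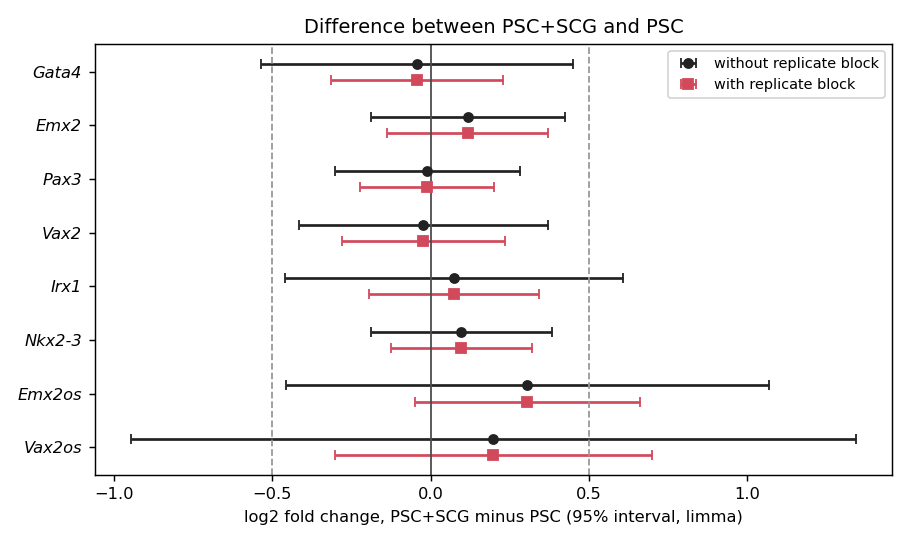
Log2 fold change of PSC+SCG minus PSC (horizontal axis) with its 95% interval from limma, without and with the replicate block, for the 6 factors and the antisense genes Emx2os and Vax2os. Dashed lines mark a log2 fold change of 0.5 in either direction; all intervals cross 0.

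Emx2os and Vax2os were transcribed beside their partners. The canonical transcripts of Emx2 and Emx2os start 91 bases apart on opposite strands and run away from each other, but some of the 23 transcripts of Emx2os start inside Emx2, so that the whole gene bodies share 1344 bases. The canonical transcripts of Vax2 and Vax2os start 968 bases apart, and the gene bodies share 976 bases. The reads were counted by strand in a stranded library, so the partners could be separated.

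Emx2os measured 285.0, 179.4 and 137.7 normalized counts in PSC and 321.3, 256.6 and 161.7 in PSC+SCG. That was 38.7, 27.7 and 22.2% of Emx2 in PSC and 44.7, 34.6 and 22.8% in PSC+SCG. Emx2os was higher with ganglia in 3 of 3 numbered pairs, by 0.17, 0.51 and 0.23 on the log2 scale, yet its libraries overlapped between groups and it did not pass the test (log2 fold change 0.31, limma adjusted p = 0.9999, and 0.707 with the block).

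Vax2os stood at 153.9, 84.0 and 39.5 in PSC and 122.6, 110.5 and 57.4 in PSC+SCG. As a share of Vax2 this was 21.7, 11.5 and 4.59% in PSC and 20.3, 13.3 and 6.75% in PSC+SCG. The share differed more between replicate numbers than between groups: replicate 1 was the highest in both groups and replicate 3 the lowest, as for Emx2os. Its log2 fold change was 0.20 (limma adjusted p = 0.9999, and 0.984 with the block).

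**Figure D3:**
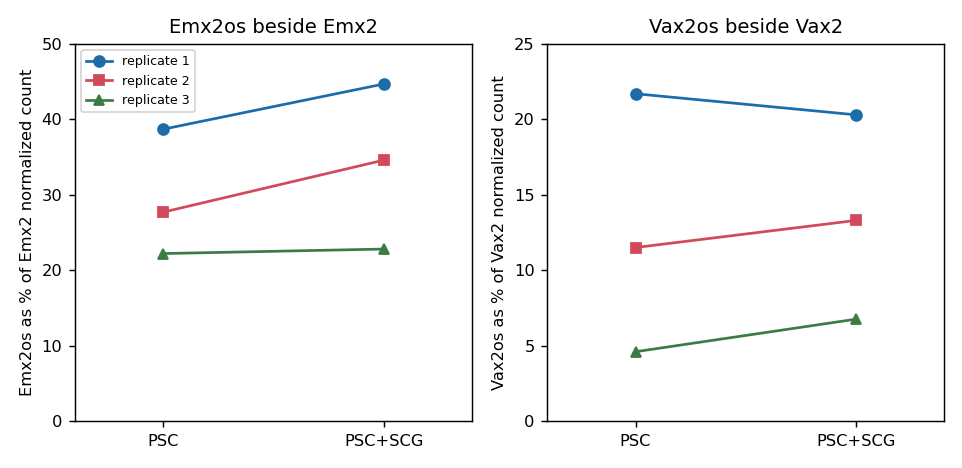
Normalized count of Emx2os as a percent of Emx2 (left) and of Vax2os as a percent of Vax2 (right) in each library, with lines joining libraries of the same replicate number. Replicate 1 is the highest in both groups, at 38.7 and 44.7% for Emx2os and 21.7 and 20.3% for Vax2os.

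The members held different places in their gene families. Emx2, Vax2 and Nkx2-3 stood alone in PSCs: Emx1 and Vax1 were at 0 in each of the 3 libraries, and Nkx2-3 made up 99.7% ± 0.357 (SD, n = 3) of the summed level per kilobase of 7 Nkx2 genes. Pax3 held 92.7% ± 4.07 of the PAX family, with Pax5, a B cell factor, next at 6.66%. Pax5 varied widely, from 86.7 to 403.0 normalized counts.

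Gata4 and Irx1, in contrast, shared their families. Gata2, best known from blood progenitors and sympathetic neurons, made up 38.1% ± 4.2 of the GATA level in PSCs, Gata4 26.1% ± 3.98, Gata3 23.5% ± 0.955 and Gata6 12.1% ± 3.55. Irx1 held 58.4% ± 8.16 of the Iroquois level, beside Irx2 at 21.4% and Irx5 at 20.1%. Irx1, Irx2 and Irx4 form 1 cluster on chromosome 13, with the starts of Irx1 and Irx2 665 kb apart and those of Irx2 and Irx4 632 kb apart. Irx4 was at 0 in each PSC library although it lies in that cluster. Irx3, from the other cluster, had at most 1.93 normalized counts.

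With ganglia the mean shares of Gata4, Irx1 and Pax3 lay within 1 SD of those in PSC alone. Single libraries went past the PSC range. Gata4 fell to 21.1% (lowest in PSC 23.2%), Irx1 rose to 67.5% (highest in PSC 63.7%) and Pax3 to 96.9% (highest in PSC 96.7%). Gata4 held 24.2% ± 4.51 of the GATA level in PSC+SCG, Irx1 59.4% ± 8.68 of the Iroquois level and Pax3 94.0% ± 2.57 of the PAX level. In SCG explants Gata4, Irx1 and Pax3 held 0.00328%, 0% and 0.364% of their families, on 1, 0 and 2 reads over 3 libraries. The rest lay with other genes, of which Gata2, Gata3, Irx2 and Irx5 also held large shares in PSCs. Gata2 took 75.1% ± 3.29 of the GATA level in SCG and Gata3 23.3% ± 2.51, Pax9 took 92.3% ± 2.09 of the PAX level, and Irx3, Irx5 and Irx2 took 42.3%, 29.9% and 27.6% of the Iroquois level.

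**Figure D4:**
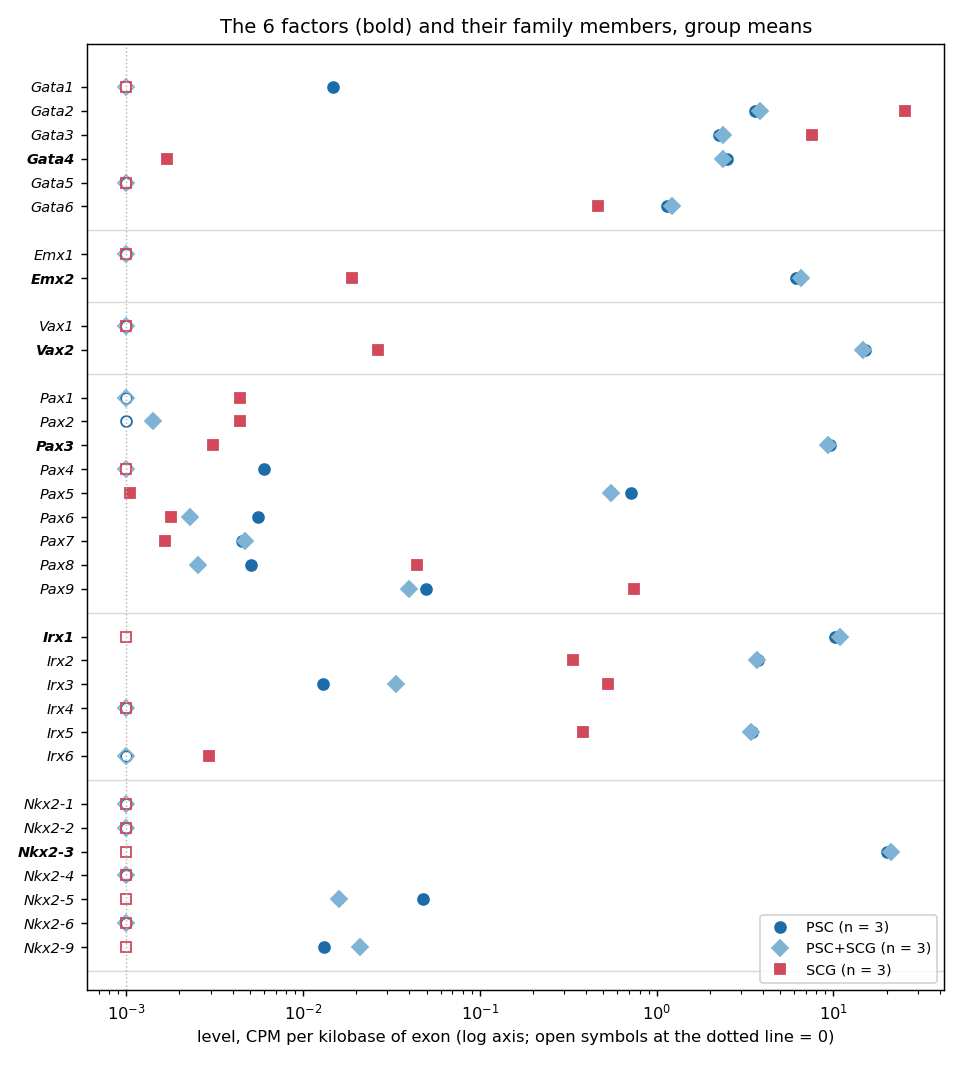
Mean level in CPM per kilobase of exon (horizontal log axis; open symbols at the dotted line are 0) of the 6 factors, in bold, and of their family members in PSC, PSC+SCG and SCG (n = 3 each). The 6 factors lie between 2.39 and 21.1 in both PSC groups and at or under 0.0267 in SCG.

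Within the nerve libraries the members were close to absent. Summed over the 6, SCG explants had 1, 8 and 4 reads per library, SCG+MEF 5, 7 and 6, and SCG+PSC replicates 1 to 3 had 13, 14 and 6. Summed in CPM, the mean was 0.123 in SCG, 0.165 in SCG+MEF and 0.255 over 4 SCG+PSC libraries, against 182.4 in PSC and 184.5 in PSC+SCG. The highest nerve library, SCG+PSC replicate 2, reached 0.41 CPM, or 0.224% of the mean over the 6 PSC and PSC+SCG libraries. The PSC and nerve tables were normalized apart, so the members' levels are set side by side as shares of each library. The normalized counts of Fap, Th and Dbh in PSCs and SCG were not put on that scale. Neither were the numbers of genes with a mean of at least 10.

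Nkx2-3 was at 0 in each SCG and SCG+MEF library, which allows up to 0.0895 CPM in the shallowest of them, and had 1.01 normalized counts in 1 of 4 SCG+PSC libraries. Irx1 was at 0 in the 3 SCG libraries. Gata4 was at 0 in all 4 SCG+PSC libraries, and its highest nerve library, SCG+MEF replicate 3, had 2.03. Pax3, although a factor of the neural crest from which these ganglia descend, did not exceed 3.04 normalized counts in any nerve library.

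Only Emx2 and Vax2 had enough counts in the nerve table, a sum of at least 10 over 9 libraries, to be tested. Vax2 reached that sum only through SCG+PSC, its highest group, so its change in SCG+PSC is a description and not evidence of a rise. Emx2 measured 0, 3.81 and 2.05 normalized counts in SCG, 3.04, 2.63 and 4.06 in SCG+MEF, and 7.67, 6.08, 4.27 and 1.01 in SCG+PSC. SCG+PSC replicates 1 to 3 lay above the SCG libraries, and replicate 4 fell among them. The log2 fold change of SCG+PSC against SCG, from replicates 1 to 3, was 1.49 (SE 0.62, limma unadjusted p = 0.0363, adjusted p = 1), and it was 1.05 with replicate 4 (unadjusted p = 0.137). Against this stand 0.0128% of all 23491 genes past the threshold, 4.01% with an unadjusted p under 0.05 and 7.66% whose groups did not overlap.

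Vax2 had at most 4.06 normalized counts in any nerve library, and neither its log2 fold change of 0.79 in SCG+PSC nor that of -0.16 in SCG+MEF passed the test (limma adjusted p = 1 for both). Emx2 gave 0.78 in SCG+MEF against SCG, also with an adjusted p of 1, where 0.0128% of all genes passed the threshold, 3% had an unadjusted p under 0.05 and in 6.63% the groups did not overlap, unlike for both members. Both comparisons share the SCG libraries. With the block 313 genes passed for SCG+PSC (1.33%) and 38 for SCG+MEF (0.162%), with no member among them. All these nerve values rest on 0 to 8 normalized counts a library.

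**Figure D5:**
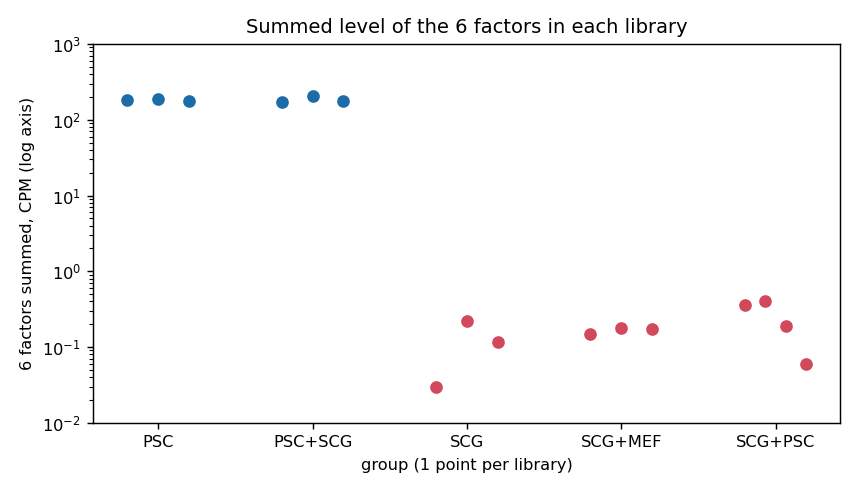
Summed level of the 6 factors in CPM (vertical log axis), 1 point per library. The 6 PSC libraries sit between 170.7 and 208.5, and the 10 nerve libraries between 0.0299 and 0.41.

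The factors that surround the members in development were read as lists. Of 105 other transcription factor genes and antisense partners in 8 lists, 63 were tested in PSCs and 0 passed the threshold for PSC+SCG against PSC, with or without the block, where the block called 0.461% of all genes. Their median log2 fold change was 0.03, beside -0.01 over all genes tested. The groups did not overlap in 5.6% of all genes tested, and in 1 of the 63. That gene was Irx3, at no more than 5.92 normalized counts, with a log2 fold change of 0.83 (limma adjusted p = 0.923 with the block).

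Splanchnic mesenchyme, stellate and mesothelial factors were the best represented: 18 of 21 had a mean of at least 10 normalized counts in PSCs. Twist1, a mesenchymal bHLH factor, led them at 13.1 ± 1.21 CPM per kilobase (SD, n = 3), and Foxf1, the forkhead factor of gut mesenchyme, followed at 12.4 ± 2.58. Both lay between Irx1 and Vax2 in level. In SCG explants 18 of the 21 also reached that mean, led by Nr2f1 at 18.7 and Isl1 at 14.5, while Foxf1 was at 0.180. Tcf21, a marker of coelomic mesenchyme, was at 0 in the PSC libraries, and the mesothelial factor Wt1 had 4.82 to 16.9 normalized counts. Changes with ganglia in this list had a median of 0.08 over 19 genes tested, and 0 passed.

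Among 12 GATA factors and partners, 9 had a mean of at least 10 in PSCs and 9 in SCG explants. Srf (13.4) and Hand2 (8.78 CPM per kilobase) led this list in PSCs, and Zfpm2, the FOG cofactor that binds Gata4, was at 3.97 ± 0.0248. Zfpm2 had 2176 to 2277 normalized counts in PSC and 2171 to 2512 in PSC+SCG, with a log2 fold change of 0.10 (SE 0.12). None of the 9 passed with ganglia, and the median of the list was -0.04.

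In the network of PAX, sine oculis homeobox, EYA and DACH factors, 9 of 20 genes reached that mean in PSCs, led by Eya3 and Six5, and 0 of 13 tested passed. Among 10 genes near Emx2 and Vax2 in function only 4 did, led by Dlx2 at 2.68 CPM per kilobase. Among Mkx and the Iroquois genes other than Irx1, 6 in all, it was 3, led by Irx2 at 3.72 and Irx5 at 3.47. Of 12 NK homeobox genes other than Nkx2-3 it was also 3, with Nkx3-2 the highest at 1.10, so no other NK gene came near the 20.1 of Nkx2-3. In SCG explants these lists gave, in the same order, 10, 4, 4 and 2 genes at that mean.

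Pancreatic epithelial factors were largely missing: 2 of 12 had a mean of at least 10 in PSCs, and 2 in SCG explants. Sox9, also a mesenchymal and cartilage factor, stood at 11.2 ± 1.02 in PSCs. Of the list 9 were at 0 in each of the 3 PSC libraries. Of 14 sympathetic and neural crest factors all had that mean in SCG explants, led by Sox10 and Hand1, and 6 did in PSCs, led by Hand2 and Gata2. The list shares Hand2, Gata2, Gata3 and Isl1 with others here.

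Genes known as targets of 2 members were read for PSC+SCG against PSC in the same way. Of 6 Pax3 targets, Met, the hepatocyte growth factor receptor, had 3204 to 4159 normalized counts in PSC and 2628 to 4000 in PSC+SCG, and Mitf, the melanocyte factor, 222.4 to 269.7 and 217.0 to 310.5. Dct and Myf5, targets in melanocytes and muscle, were at 0 in all 6 libraries. Of 6 Gata4 targets, Star, the steroidogenic carrier, had 44.8 to 54.9 and 39.6 to 59.6, and Amh, a Sertoli cell hormone, 15.9 to 30.4 and 20.2 to 38.6. The cardiac target Myh6 was at 0 in all 6. None of the 4 tested genes of either list passed, with medians of -0.08 and 0.17.

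Markers of other cell types had low sums in PSCs, beside 15760 to 21310 CPM for the fibroblast and stellate markers in PSC. These sums measure transcripts in a single line and do not count cells of other types. Epithelial markers summed to 0.168 to 0.364 CPM over the 3 PSC libraries and to 0.165 to 0.306 in PSC+SCG, with 0 of 6 at a mean of 10. Skeletal muscle markers, read because Pax3 belongs to muscle progenitors, summed to 0.182 to 2.696 in PSC and 0.931 to 2.81 in PSC+SCG, with Myog and Myod1 the highest. Glial markers summed to 3.54 to 5.38 and 4.55 to 5.52, sympathetic neuron markers to 33.1 to 54.8 and 44.9 to 60.8, mostly Tubb3. Mesothelial markers summed to 1.68 to 2.52 and 1.67 to 5.61, endothelial markers to 0.729 to 1.82 and 0.467 to 1.33, and leukocyte markers to 5.67 to 8.17 and 6.36 to 8.49. The part of these transcripts in the members' levels was not tested.

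The genes whose pattern over the 6 PSC-table libraries was nearest to each member were found by the root mean square difference of centred log2 values, among 12400 protein-coding genes. Plin2 lay nearest to Gata4 (0.05), Wbp1l to Emx2 (0.01), Nelfa to Pax3 (0.02), Abhd8 to Vax2 (0.03), Rnf157 to Irx1 (0.06) and Ak1 to Nkx2-3 (0.02). Next came Atp6v1f and Fuca2 for Gata4, S100a1 and Hif1an for Emx2, Lamtor5 and Mreg for Pax3, Rabac1 and Sec61b for Vax2, Ociad2 and Apba1 for Irx1, and Pfkm and St6galnac6 for Nkx2-3. No member was among the 3 nearest genes of another, but 3 places among 12400 genes cannot show whether the members varied together. The likeness is a description of these 6 libraries and was not tested.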

How the data were processed

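Bulk RNA was sequenced from stranded libraries. The authors aligned the reads with STAR 2.7.10b to GRCm39, counted them per gene and strand on GENCODE M33 basic, and divided each library by its DESeq2 1.38.3 size factor, separately for PSC and nerve libraries. The deposited values are thus a signal, normalized counts. The study's own model held the experimental batch, as separate dated experiments, but neither the labels nor the methods say which library belongs to which, so no batch term was fitted in the main test and the replicate number was the alternative. P-values measure the spread between these samples. The members and lists were chosen with earlier results of these data known. The named genes are the members, the 3 nearest in pattern to each, and in each list those past the threshold and the 2 highest; others named here were picked after their values were seen.

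Log2(normalized count + 1) of genes with a sum of at least 10 was tested with limma 3.58.1 in R 4.3.3 (empirical Bayes with a trend, Benjamini-Hochberg adjustment over all genes tested). Fold changes are on that scale and understate those of low genes. Replicates 1 to 3 of all explant groups entered 1 nerve fit. Same-numbered libraries deviated together (r = 0.53, 0.57 and 0.77 between PSC and PSC+SCG, 0.39 to 0.62 for SCG+PSC and 0.62 to 0.70 for SCG+MEF, each with SCG), so the replicate numbers pair the samples. The main fit leaves this pairing out, and the block is given beside the counts and beside the members' intervals in PSCs. Values are multiples of a step that gives back whole numbers in all 16 libraries. Those of PSC+SCG replicate 1 and SCG+PSC replicate 4 were not recovered with certainty, so edgeR 4.0.16 was run on 5 PSC-table and 9 nerve libraries, an alternative chosen after seeing the data. Lengths and starts came from GENCODE M39 on GRCm39, a later release than the authors' M33, and gene lengths per kilobase are exon unions. Intervals on reads and floors of 3 reads cover counting error only.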

Additional observations from a re-analysis of the deposited data

Results flagged for a closer look

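Among the 4 SCG+PSC libraries, 1 library stood far from the others for 2 members. Irx1 was at 1.92 normalized counts in replicate 1 and at 0 in the other 3, and Nkx2-3 was at 1.01 in replicate 2 and at 0 in the other 3. Both values are under the floor of 3 counts. The measure used sets about 1 in 20 groups apart by chance for continuous values, but not for counts this low, where any lone library with a read stands apart from 3 at 0. It was applied to 7 sets of 4 libraries, antisense genes included, and set these 2 apart. Groups of 3 were not examined.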

How the results depend on the processing

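No member passed the threshold in any comparison under any alternative, and the replicate block changed no other call of a member. The block moved the counts of genes past the threshold from 0 and 0 to 67 higher and 31 lower for PSC+SCG, from 3 and 0 to 284 and 29 for SCG+PSC, and from 3 and 0 to 27 and 11 for SCG+MEF, each against the culture alone. edgeR with the block, chosen after seeing the data, gave 285 and 31 for SCG+PSC and 26 and 9 for SCG+MEF. For SCG+PSC the higher genes numbered 6 when adjusted over protein-coding genes only, 8 with all 4 SCG+PSC libraries and 1 in a fit of the 2 groups compared, which also gave 1 for SCG+MEF. Leaving out 1 library gave 0 higher and 0 lower genes for PSC+SCG, 1 to 2 higher for SCG+PSC (1 without SCG replicate 1 or 2, or SCG+PSC replicate 1 or 3) and 0 to 3 for SCG+MEF (0 without SCG replicate 1 or SCG+MEF replicate 3, and 1 without SCG+MEF replicate 1), and 0 lower in both. The cause was not tested.

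The small fold changes of the members turned in direction under some settings. Leaving out 1 library gave -0.21 to 0.13 for Gata4, -0.10 to 0.06 for Pax3, -0.11 to 0.14 for Vax2, -0.18 to 0.23 for Irx1, 0.07 to 0.19 for Emx2 and 0.02 to 0.14 for Nkx2-3. Direction turned for Gata4 without PSC replicate 2 (0.13) or PSC+SCG replicate 1 (0.09), for Pax3 without PSC replicate 2 (0.06), PSC replicate 3 (0.01) or PSC+SCG replicate 1 (0.04), for Vax2 without PSC replicate 3 (0.06) or PSC+SCG replicate 1 (0.14), and for Irx1 without PSC replicate 3 (-0.09) or PSC+SCG replicate 2 (-0.18). edgeR on 5 libraries, which lack PSC+SCG replicate 1, turned Gata4 (0.08), Pax3 (0.029) and Vax2 (0.13). These are the members that limma turned without that same library. Vax2 in SCG+MEF against SCG ranged from -0.66 to 0.32 and turned to 0.32 without SCG replicate 2 and to 0.25 without SCG+MEF replicate 3. Leaving out 1 library gave 0.84 to 1.98 for Emx2 in SCG+PSC against SCG (0.13 to 1.27 in SCG+MEF) and 0.30 to 1.27 for Vax2. Over all settings the ranges in SCG+PSC were 0.50 to 1.98 and 0.20 to 1.27, and the change of Emx2 was 1.85 at a pseudocount of 0.5 and 0.50 at a pseudocount of 8. Levels per kilobase over the longest coding transcript moved by more than 1 SD for Gata4 in PSC (3.05) and for Pax3 in PSC (15.3) and PSC+SCG (14.9). Nerve values of 0 to 8 counts limit what could be seen there.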
